A study of Homo sapiens with 42 samples.

Results

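The 39 interferon-stimulated genes described here are a named list of antiviral and regulatory genes that cells raise when they sense interferon. They were followed in A375, a melanoma cell line of human origin that carries an activated BRAF oncogene. Each was represented by the probe set that the array annotation gives to that gene symbol alone and that had the highest mean log2 signal over all 42 arrays. By this rule 38 of the 39 were measured, among 19775 genes in all, and STAT2 was not analysed here. An siRNA that targets p53, CDT1 or BRCA1 was transfected, and GL2, a luciferase siRNA in common use as a control, served as its counterpart. After 48 hours the cells were treated for 26 hours with 650 nM MLN4924, 5 uM Nutlin, 100 nM daunorubicin or 0.065% DMSO. CDT1 and BRCA1 siRNA were combined with MLN4924 and DMSO, and p53 and GL2 siRNA with all 4 treatments, DMSO in a first and a second set. This gave 14 groups of 3 arrays, and the labels give 27000 cells for each array. All groups are cultures of the same line and carry an siRNA, so that an untransfected state was not measured, and the labels name no interferon treatment.

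In the interferon pathway, nucleic acid sensors such as the cGAS-STING and MDA5-MAVS routes activate kinases and IRF factors that turn on interferon genes. Secreted type I interferon binds IFNAR1 and IFNAR2, the kinases JAK1 and TYK2 pass the signal on, and a complex that holds STAT2 and IRF9 binds the interferon-stimulated response element, or ISRE, in promoters. Interferon gamma acts through the GAS element. Many tumour lines keep some of these genes on without added interferon. MLN4924 blocks the NEDD8-activating enzyme, which cullin-RING ubiquitin ligases need. Nutlin stabilises p53 by blocking its contact with MDM2, and daunorubicin poisons topoisomerase II and breaks DNA. CDT1 licenses replication origins, and BRCA1 acts in homologous recombination.

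The promoters of members were searched for the ISRE and GAS elements. RefSeq promoters of the GRCh38 build, 250 bases before to 50 bases after the start, were matched for 31 of the 38 members. The ISRE core GAAANNGAAA, N being any base, was searched on both strands and stood in 21 of these 31 (67.7%), against 996 of all 27305 promoters in the table (3.65%) and 453 of the 15384 promoters of genes on the array (2.94%). The GAS core TTCNNNGAA stood in 10 of the 31 (32.3%), against 2152 of all promoters (7.88%). Of members called lower with MLN4924 in at least 1 siRNA (below), 11 of 15 had an ISRE core (73.3%), against 10 of 16 of the other members (62.5%). A match is a description of the letters and not a binding site. The promoters shown are those of the 3 members with the largest mean change with MLN4924 over GL2 and p53 siRNA cells, IFI44L, BST2 and ISG20, and of ISG15, a ubiquitin-like modifier. Each is given on its gene's strand, 5' to 3', with ISRE and GAS matches in capitals.
IFI44L, chr1:78620198-78620497, plus strand, 2 ISRE cores: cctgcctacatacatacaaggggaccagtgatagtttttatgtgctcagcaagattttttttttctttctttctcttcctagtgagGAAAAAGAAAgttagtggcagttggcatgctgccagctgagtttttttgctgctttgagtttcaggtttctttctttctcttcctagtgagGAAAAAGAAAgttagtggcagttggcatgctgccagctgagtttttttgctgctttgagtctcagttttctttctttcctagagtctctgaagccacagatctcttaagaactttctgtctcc
BST2, chr19:17405581-17405880, minus strand, 2 overlapping ISRE cores and 2 GAS cores, one of which overlaps an ISRE: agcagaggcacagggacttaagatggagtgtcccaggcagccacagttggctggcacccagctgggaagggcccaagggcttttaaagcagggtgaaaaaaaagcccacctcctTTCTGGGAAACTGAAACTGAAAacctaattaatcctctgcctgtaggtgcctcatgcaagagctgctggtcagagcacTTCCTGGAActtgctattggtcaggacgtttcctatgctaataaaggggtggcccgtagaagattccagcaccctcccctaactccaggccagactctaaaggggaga
ISG20, chr15:88638766-88639065, plus strand, 1 ISRE core: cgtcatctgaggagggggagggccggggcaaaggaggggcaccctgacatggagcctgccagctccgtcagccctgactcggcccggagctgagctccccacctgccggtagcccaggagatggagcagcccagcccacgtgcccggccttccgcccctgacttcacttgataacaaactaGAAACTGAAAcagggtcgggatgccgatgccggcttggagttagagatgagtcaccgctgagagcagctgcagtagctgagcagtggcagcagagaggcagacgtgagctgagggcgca
ISG15, chr1:1013247-1013546, plus strand, 2 overlapping ISRE cores: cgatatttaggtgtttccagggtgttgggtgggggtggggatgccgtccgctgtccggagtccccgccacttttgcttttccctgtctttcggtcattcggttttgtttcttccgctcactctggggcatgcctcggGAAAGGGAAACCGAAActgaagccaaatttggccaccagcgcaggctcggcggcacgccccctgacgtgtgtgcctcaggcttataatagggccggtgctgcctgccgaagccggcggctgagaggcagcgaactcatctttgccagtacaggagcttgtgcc
The 4 promoters share the core in different places and numbers. Among other members discussed below, IFIT1 had 2 ISRE cores, HERC5 had 3, IFI44 had 1, IFI35 had a GAS core and no ISRE core, and PARP9 and CMPK2 had neither core in this window.

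Levels are log2 signals, centred so that the median gene is equal on all arrays. Summed marker signals, given below on the linear scale, are not centred. Without this centring the median of all genes moves with the treatment, and centring shifted changes by 0.42 for MLN4924 in p53 siRNA cells, by 0.11 to 0.18 for MLN4924 in the other siRNAs, by -0.13 for Nutlin and -0.17 for daunorubicin in GL2 siRNA cells, and by 0.35 for MLN4924 less daunorubicin, so every change below is relative to the median gene. A call needed a limma p, adjusted by Benjamini and Hochberg's method across every gene, under 0.05 together with a change of at least 1.5-fold, and changes are given with their standard error. Nothing in the labels states that replicates came from different cultures, and p-values therefore measure the spread among these arrays, which may be technical. BRCA1 lay at 5.82 to 5.98 in BRCA1 siRNA cells under DMSO, against 8.52 to 8.95 in GL2 siRNA cells, and CDT1 at 6.51 to 6.77 in CDT1 siRNA cells, against 8.56 to 9.16. CDKN1A, a p53 target, lay at 6.48 to 7.57 in p53 siRNA cells under DMSO, against 9.01 to 9.25 in GL2 siRNA cells. 3 libraries stood apart. The library labelled GL2 MLN4924 3 had BRCA1 at 4.70, against 7.95 and 8.24 in the other 2 of its group, and the library labelled BRCA1 MLN4924 3 had BRCA1 at 8.18, against 4.93 and 5.28. The library labelled p53 daunorubicin 1 had a 5' to 3' signal ratio of 0.0118 for actin and 0.0509 for GAPDH, against 0.649 to 0.945 and 0.989 to 1.19 on the other 41 arrays. Results that rest on these 3 are given with and without them. The melanoma markers SOX10, MITF and AXL were above the median of all signals on all 42 arrays, S100B on 40, while the pigment genes PMEL and MLANA were so on only 4 and 2. Of the 9 leukocyte markers, LYZ was above it on all 42 arrays, NCAM1 on 25, CD3E on 11, CSF1R on 9, CD2 on 4, and PTPRC, CD14, CLEC4C and LILRA4 on 0. In bulk RNA of this kind, fewer cells of a type and less RNA per cell cannot be told apart.

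MLN4924 was set against DMSO within each siRNA to ask how blocking neddylation bears on these genes. Under GL2 siRNA, MLN4924 lowered 9 members and raised 1 of the 38, which is 23.7% lower, against 7.06% of all genes called lower and 10.2% called higher. The median change of the members was -0.22, against 0.08 over all genes. Under p53 siRNA, 15 members fell and 0 rose, or 39.5% lower, against 7.6% of all genes lower and 17.8% higher (medians -0.49 and 0.20). Under CDT1 siRNA, 4 fell and 0 rose, or 10.5% lower, against 4.63% lower and 5.93% higher of all genes (medians -0.24 and 0.10). Under BRCA1 siRNA, 9 fell and 0 rose, or 23.7% lower, against 7.15% lower and 9.79% higher of all genes (medians -0.28 and 0.16). At an unadjusted p under 0.05, limma gave 18, 22, 13 and 15 members in GL2, p53, CDT1 and BRCA1 siRNA cells, or 47.4%, 57.9%, 34.2% and 39.5%, against 37.2%, 43.9%, 26.7% and 34.6% of all genes. Of these members, 16, 20, 13 and 15 were lower and 2, 2, 0 and 0 higher, in the same order. The share in BRCA1 siRNA cells is near that of all genes. ISG20 and IFI35 were called lower in all 4 siRNAs, DDX60, OAS1 and IFI44 in 3, 7 members in 2 and 6 in 1. The GL2 and p53 comparisons use both DMSO sets of their siRNA, 6 arrays, and without the doubted libraries the counts were 10 in GL2 and 8 in BRCA1 siRNA cells. Arrays of the MLN4924 and DMSO groups lay apart for 11 members under GL2 siRNA (28.9%, against 28.5% of all genes), 16 under p53 siRNA (42.1%, against 37.9%), 15 under CDT1 siRNA (39.5%, against 39.3%) and 17 under BRCA1 siRNA (44.7%, against 39.3%), so that a gene whose groups do not overlap is common in these comparisons.

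**Figure D1:**
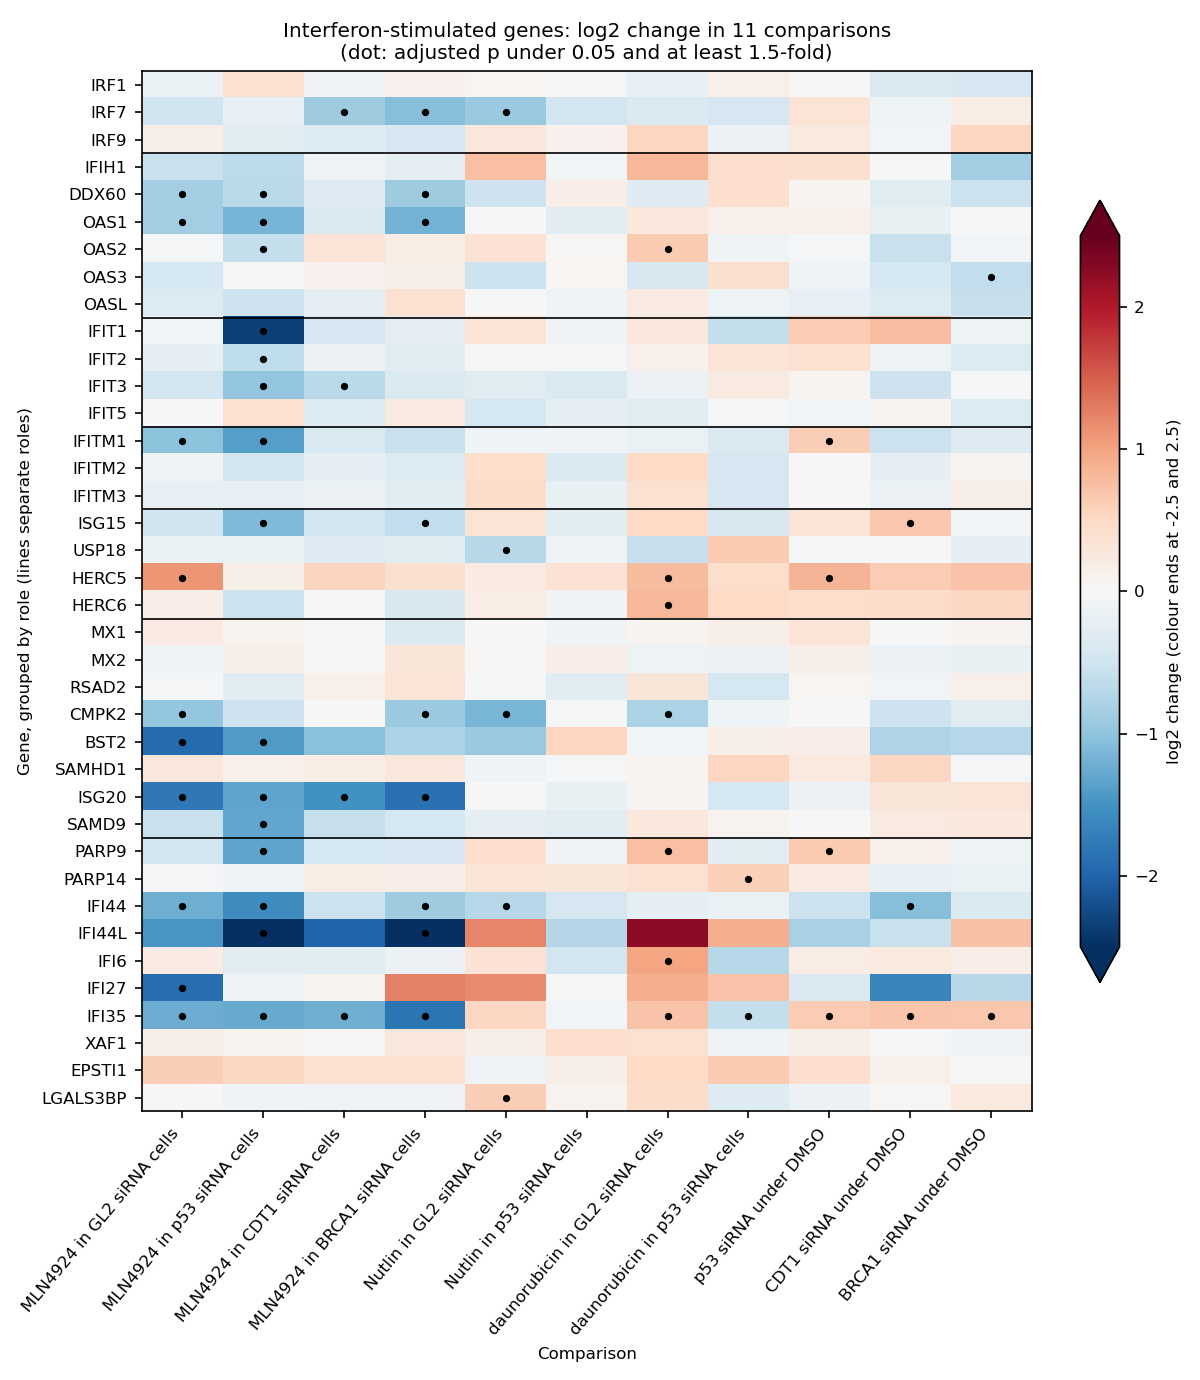
Log2 change of the 38 measured interferon-stimulated genes (rows, grouped by role) in 11 comparisons of treatment or siRNA with its control (columns), with colour from -2.5 (blue) to 2.5 (red) and a dot where the gene was called. The MLN4924 columns hold 9 dots for lower and 1 for higher under GL2 siRNA, and 15, 4 and 9 for lower under p53, CDT1 and BRCA1 siRNA. The daunorubicin column of GL2 siRNA cells holds 6 for higher and 1 for lower, and the Nutlin column of p53 siRNA cells holds none.

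Among the effectors, ISG20, an exonuclease that degrades RNA, fell in all 4 siRNAs. In cells given GL2 siRNA, ISG20 lay at 7.24, 7.56 and 7.70 on the 3 MLN4924 arrays, against 9.21 to 9.40 (median 9.25) on the DMSO arrays, a change of -1.78 ± 0.09, adjusted p = 3.23e-15, or 3.44-fold lower. All MLN4924 arrays lay below all DMSO arrays. In cells given p53 siRNA, ISG20 lay at 7.71, 7.82 and 7.95 with MLN4924, against 9.07 to 9.23 (median 9.14) with DMSO (-1.32 ± 0.09, adjusted p = 1.8e-12). In cells given CDT1 siRNA, it lay at 7.96, 8.19 and 8.07 with MLN4924, against 9.54, 9.62 and 9.62 with DMSO (-1.52 ± 0.11, adjusted p = 9.11e-12). In cells given BRCA1 siRNA, it lay at 7.89, 7.82 and 7.49 with MLN4924, against 9.69, 9.66 and 9.47 with DMSO (-1.87 ± 0.11, adjusted p = 3.33e-14). The groups did not overlap in any of the 4 siRNAs, and over the 14 groups ISG20 was lowest in GL2 siRNA cells with MLN4924. Of the 8 effectors, 3 each were called lower under GL2 and p53 siRNA, 2 under BRCA1 siRNA and 1 under CDT1 siRNA. CMPK2, a mitochondrial nucleotide kinase, lay at 6.20, 5.98 and 5.57 with MLN4924 in GL2 siRNA cells, against 6.66 to 7.10 (median 6.93) with DMSO (-0.97 ± 0.18, adjusted p = 6.59e-05), and changed by -0.92 ± 0.20, adjusted p = 0.000841 in BRCA1 siRNA cells. SAMD9, a cytoplasmic restriction factor of poxviruses, lay at 6.20, 6.06 and 6.33 with MLN4924 in p53 siRNA cells, against 7.44 to 7.55 (median 7.49) with DMSO (-1.30 ± 0.22, adjusted p = 1.93e-05). In GL2 siRNA cells SAMD9 lay at 6.72, 6.53 and 7.59 with MLN4924, against 7.42 to 7.57 (median 7.50) with DMSO, and was not called at -0.55. The third of these arrays, from the library labelled GL2 MLN4924 3, lay highest, and without the doubted libraries SAMD9 was called at -0.87.

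BST2, the tetherin that holds budding virus at the membrane, is a dim gene here, with a group mean under the median of all signals, 31.9, so its folds rest on weak signal. Under GL2 siRNA, BST2 lay at 1.62, 1.88 and 2.37 with MLN4924, against 2.99 to 4.33 (median 4.04) with DMSO (-1.93 ± 0.48, adjusted p = 0.00232), with no overlap. In p53 siRNA cells it lay at 2.47, 1.83 and 3.56 with MLN4924, against 3.18 to 4.75 (median 3.999) with DMSO (-1.42 ± 0.48, adjusted p = 0.0181). These groups overlapped, and the call was lost without p53 MLN4924 1 (-1.35) or 2 (-1.03). The GTPases MX1 and MX2, which trap incoming virus, were not called with MLN4924 in any siRNA, with changes of 0.20, 0.09, -0.05 and -0.37 for MX1 and -0.11, 0.16, 0.003 and 0.31 for MX2 in GL2, p53, CDT1 and BRCA1 siRNA cells. SAMHD1, which hydrolyses deoxynucleotides, was not called either, at 0.28, 0.13, 0.19 and 0.28.

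IFI35 and IFI44 led the remaining members. IFI35, a leucine zipper protein that binds NMI, lay at 6.95, 6.79 and 6.75 with MLN4924 in GL2 siRNA cells, against 7.98 to 8.19 (median 8.08) with DMSO (-1.24 ± 0.15, adjusted p = 1.92e-07). Under p53 siRNA, it lay at 7.55, 7.31 and 7.48 with MLN4924, against 8.32 to 8.97 (median 8.75) with DMSO (-1.26 ± 0.15, adjusted p = 9.16e-08). MLN4924 arrays lay below DMSO arrays in both. In CDT1 siRNA cells IFI35 lay at 7.36, 7.64 and 7.62 with MLN4924, against 8.80, 8.68 and 8.80 with DMSO (-1.22 ± 0.18, adjusted p = 7.67e-06). In BRCA1 siRNA cells it lay at 7.03, 6.91 and 6.84 with MLN4924, against 8.86, 8.74 and 8.64 with DMSO (-1.82 ± 0.18, adjusted p = 2.83e-09), 3.53-fold lower. IFI35 thus had no overlap between groups in any siRNA. IFI44, an interferon-induced protein with a GTP-binding motif, lay at 7.07, 7.34 and 7.41 with MLN4924 in GL2 siRNA cells, against 8.42 to 8.59 (median 8.51) with DMSO (-1.23 ± 0.12, adjusted p = 1.41e-09). In cells given p53 siRNA, IFI44 lay at 6.41, 6.34 and 6.48 with MLN4924, against 7.87 to 8.04 (median 7.98) with DMSO (-1.55 ± 0.12, adjusted p = 8.33e-12), and this was the lowest of its 14 group means. Under BRCA1 siRNA, it changed by -0.88 ± 0.14, adjusted p = 9.57e-06. Under CDT1 siRNA, where IFI44 was already low under DMSO, it lay at 6.78, 7.05 and 6.85 with MLN4924, against 7.29, 7.52 and 7.48 with DMSO, a change of -0.54 ± 0.14, adjusted p = 0.00529 that passed the p but not the 1.5-fold threshold.

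IFI44L, the neighbour and relative of IFI44, was dim and had the largest called changes with MLN4924 in p53 and BRCA1 siRNA cells. Its MLN4924 arrays there lay far under the median of all signals, so the size of these changes rests on weak signal. In cells given BRCA1 siRNA, IFI44L lay at 0.01, 1.12 and -0.34 with MLN4924, against 3.57, 4.26 and 4.31 with DMSO (-3.79 ± 0.91, adjusted p = 0.00203), with no overlap. In p53 siRNA cells it lay at 0.21, 0.48 and -0.90 with MLN4924, against -0.13 to 4.52 (median 3.06) with DMSO (-2.57 ± 0.79, adjusted p = 0.00941). Those groups overlapped, and the call was lost without p53 MLN4924 3 (-2.15). IFI27, a small hydrophobic protein and also dim, lay at 1.17, 1.52 and 1.14 with MLN4924 in GL2 siRNA cells, against 0.82 to 4.52 (median 4.03) with DMSO (-1.90 ± 0.69, adjusted p = 0.0354). The 3 lower DMSO arrays of IFI27 were those of the first set, at 3.75, 0.82 and 1.30, and the second set lay at 4.35, 4.52 and 4.30. The call was lost without any 1 of the MLN4924 arrays or of 2 DMSO arrays (-2.02 to -1.45), without the doubted libraries (-1.83) and against the first set alone (-0.68). PARP9, an ADP-ribosyltransferase partner of DTX3L, lay at 6.004, 5.93 and 5.98 with MLN4924 in p53 siRNA cells, against 7.06 to 7.56 (median 7.27) with DMSO (-1.31 ± 0.12, adjusted p = 2.42e-10), with no overlap. In cells given GL2 siRNA, PARP9 changed by -0.49 ± 0.12, adjusted p = 0.00173, short of 1.5-fold. LGALS3BP, a secreted glycoprotein, was not called in any siRNA, with changes of 0.01, -0.10, -0.13 and -0.12 in GL2, p53, CDT1 and BRCA1 siRNA cells.

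**Figure D2:**
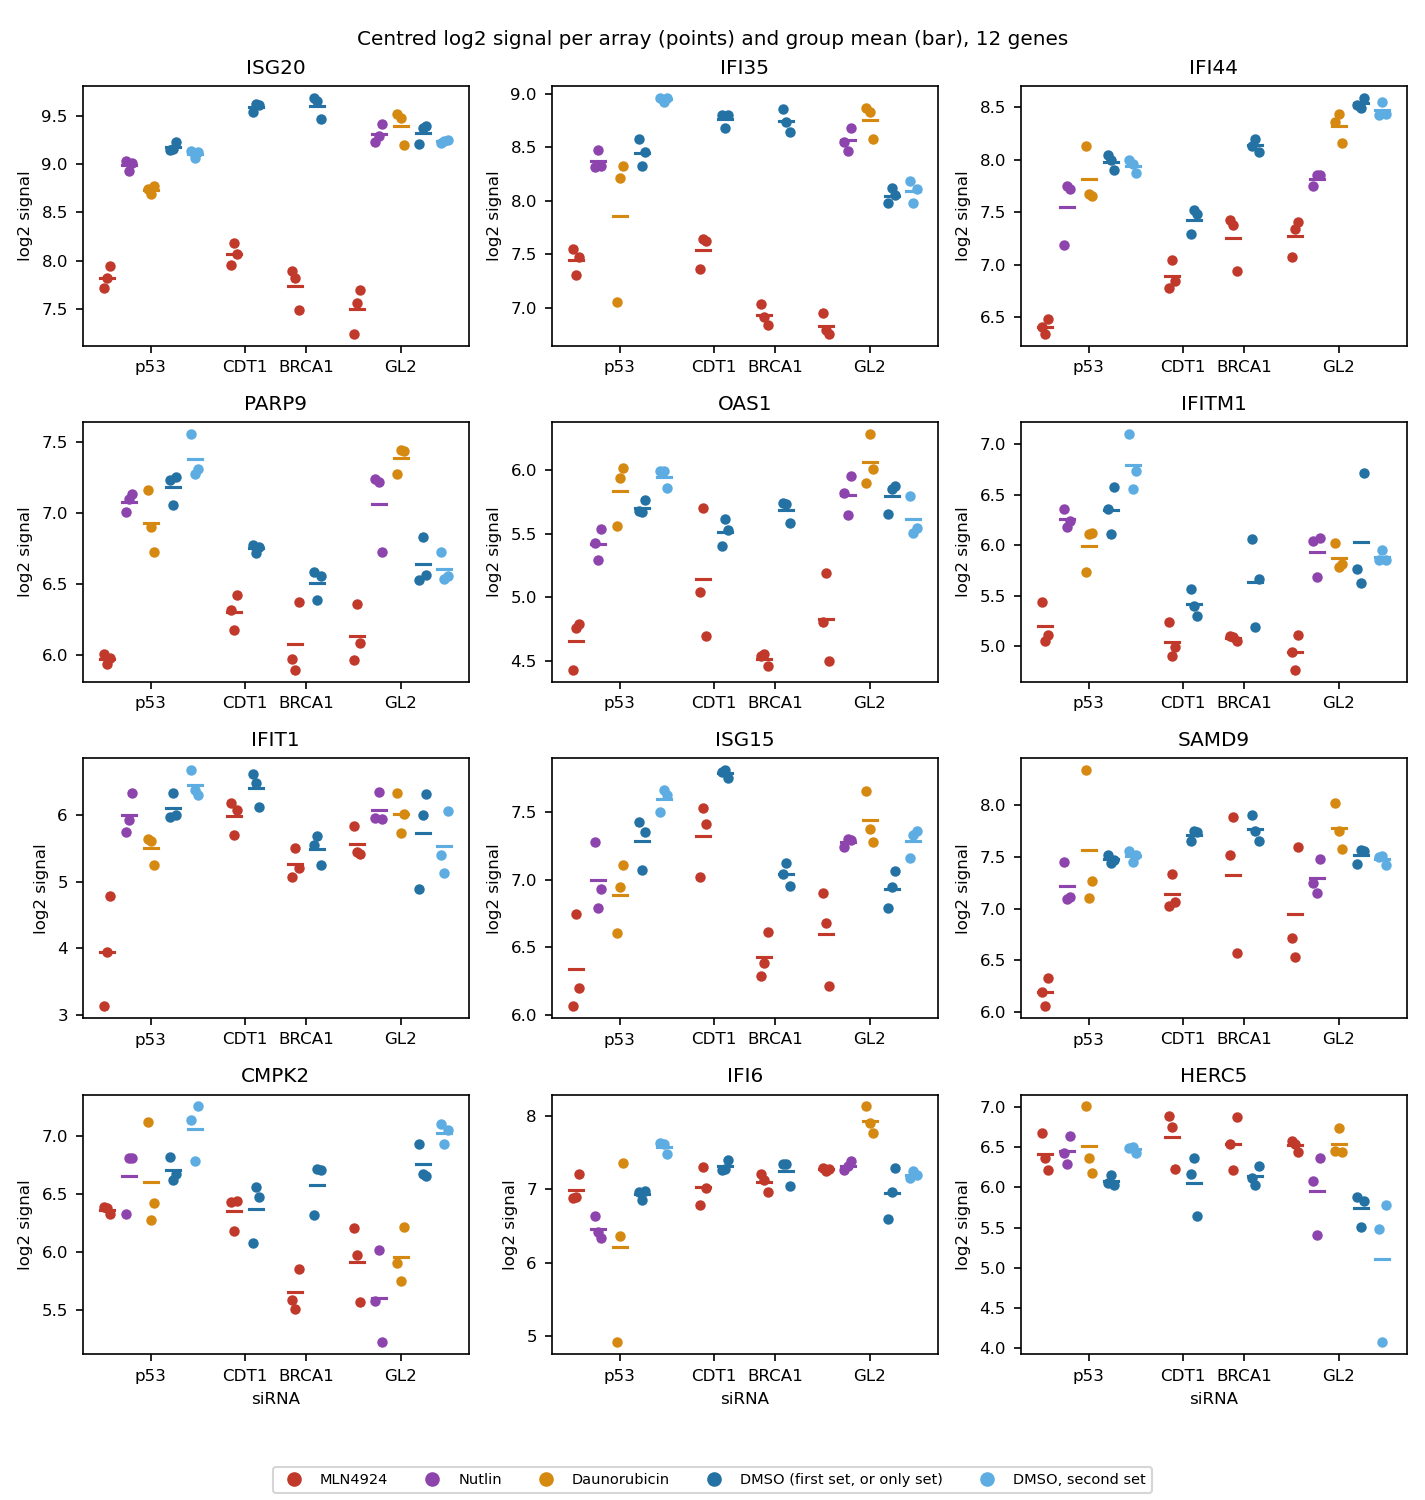
Log2 signal of 12 interferon-stimulated genes on every array, by siRNA and treatment, with points for arrays and a bar for each group mean (n = 3 arrays a group). ISG20 and IFI35 show all MLN4924 arrays below the DMSO arrays of the same siRNA, IFI6 shows daunorubicin above DMSO in GL2 siRNA cells, and HERC5 shows MLN4924 above DMSO in GL2 siRNA cells.

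Of the 6 RNA sensors and oligoadenylate synthetases, 2 each fell under GL2 and BRCA1 siRNA, 3 under p53 siRNA and 0 under CDT1 siRNA. OAS1, whose product activates RNase L on double-stranded RNA, lay at 4.80, 5.19 and 4.49 with MLN4924 in GL2 siRNA cells, against 5.51 to 5.87 (median 5.73) with DMSO (-0.88 ± 0.15, adjusted p = 3.4e-05). Its other probe set changed by -0.15 there, and the mean of both was not called (-0.50). Under p53 siRNA, OAS1 lay at 4.43, 4.76 and 4.79 with MLN4924, against 5.67 to 5.99 (median 5.81) with DMSO (-1.17 ± 0.15, adjusted p = 2.42e-07). In BRCA1 siRNA cells it lay at 4.54, 4.55 and 4.46 with MLN4924, against 5.74, 5.74 and 5.59 with DMSO (-1.17 ± 0.18, adjusted p = 5.62e-06). These 3 pairs of groups did not overlap, while in CDT1 siRNA cells OAS1 lay at 5.04, 5.70 and 4.69 with MLN4924, against 5.41, 5.61 and 5.53 with DMSO, with overlap and no call. The MLN4924 groups of OAS1 were dim where it was called. DDX60, a helicase of the RNA-sensing pathway, also had dim MLN4924 groups where it was called. It changed by -0.85 ± 0.24, adjusted p = 0.00697 in GL2, -0.68 ± 0.24, adjusted p = 0.0246 in p53 and -0.88 ± 0.28, adjusted p = 0.0177 in BRCA1 siRNA cells. Each of these 3 calls was lost when 1 array was left out, with changes then of -0.70 in GL2, -0.62 or -0.59 in p53 and -0.79 or -0.67 in BRCA1 siRNA cells. The last value is that without the library labelled BRCA1 MLN4924 3. OAS2, which works as OAS1 does, changed by -0.60 ± 0.17, adjusted p = 0.00539 in p53 siRNA cells, a call lost without any of 4 arrays (-0.58 to -0.57). The MLN4924 group of OAS2 there was dim too.

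The IFIT proteins bind foreign RNA and hold back its translation. 3 of the 4 IFIT genes fell in p53 siRNA cells, 1 in CDT1 siRNA cells and 0 in GL2 or BRCA1 siRNA cells. IFIT1 lay at 3.13, 3.94 and 4.78 with MLN4924 in p53 siRNA cells, against 5.97 to 6.68 (median 6.31) with DMSO (-2.33 ± 0.27, adjusted p = 3.54e-08), 5.01-fold lower without overlap, its MLN4924 group being dim. In GL2 siRNA cells IFIT1 lay at 5.84, 5.45 and 5.42 with MLN4924, against 4.89 to 6.32 (median 5.70) with DMSO, a change of -0.07 inside the spread of the DMSO arrays. IFIT3 lay at 7.31, 7.20 and 7.38 with MLN4924 in p53 siRNA cells, against 8.07 to 8.66 (median 8.21) with DMSO (-0.99 ± 0.14, adjusted p = 6.38e-07). Its other probe set changed by -0.13, and IFIT3 was not called from the mean of both (-0.58). It changed by -0.68 ± 0.16, adjusted p = 0.00226 in CDT1 siRNA cells. IFIT2 changed by -0.64 ± 0.18, adjusted p = 0.00481 in p53 siRNA cells, by -0.26 in its other probe set and by -0.47 in the mean of both, which was not called. The MLN4924 group of IFIT2 there was dim. IFIT5 was not called in any siRNA, at 0.01, 0.37, -0.35 and 0.22 in GL2, p53, CDT1 and BRCA1 siRNA cells. Of the 3 IFITM genes, whose membrane proteins restrict viral entry, only IFITM1 was called with MLN4924. It lay at 4.95, 4.76 and 5.11 with MLN4924 in GL2 siRNA cells, against 5.62 to 6.71 (median 5.85) with DMSO (-1.02 ± 0.18, adjusted p = 4.8e-05), and at 5.43, 5.06 and 5.11 with MLN4924 in p53 siRNA cells, against 6.11 to 7.10 (median 6.57) with DMSO (-1.37 ± 0.18, adjusted p = 3.05e-07). Both MLN4924 groups of IFITM1 were dim and lay below all their DMSO arrays.

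In the ISG15 system, ISG15 is the modifier, HERC5 its ligase and USP18 the protease that removes it and also restrains the type I receptor. ISG15 lay at 6.07, 6.75 and 6.20 with MLN4924 in p53 siRNA cells, against 7.07 to 7.66 (median 7.47) with DMSO (-1.10 ± 0.15, adjusted p = 4.6e-07). Under BRCA1 siRNA, ISG15 lay at 6.29, 6.38 and 6.62 with MLN4924, against 7.05, 7.12 and 6.96 with DMSO (-0.61 ± 0.17, adjusted p = 0.00785), a call lost without BRCA1 DMSO 2 (-0.57) or BRCA1 MLN4924 1 (-0.54). In GL2 and CDT1 siRNA cells ISG15 changed by -0.51 ± 0.15, adjusted p = 0.00933 and by -0.47 ± 0.17, adjusted p = 0.064, neither of them called. HERC5 ran the other way, and was the 1 member called higher with MLN4924. It lay at 6.58, 6.54 and 6.44 with MLN4924 in GL2 siRNA cells, against 4.08 to 5.88 (median 5.65) with DMSO (1.09 ± 0.25, adjusted p = 0.00102), all MLN4924 arrays lying above all DMSO arrays. The lowest HERC5 value was GL2 DMSO 2 of the second set, at 4.08, and in p53, CDT1 and BRCA1 siRNA cells its changes of 0.14, 0.57 and 0.40 were not called.

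Of the 3 transcription factors, IRF7, which amplifies type I interferon production, fell in CDT1 and BRCA1 siRNA cells. IRF7 lay at 5.01, 5.45 and 5.11 with MLN4924 in CDT1 siRNA cells, against 6.13, 6.12 and 5.995 with DMSO (-0.89 ± 0.15, adjusted p = 7.91e-05). In cells given BRCA1 siRNA, it lay at 5.34, 5.09 and 5.53 with MLN4924, against 6.55, 6.30 and 6.28 with DMSO (-1.06 ± 0.15, adjusted p = 3.18e-06). Neither pair of groups overlapped, and in GL2 siRNA cells IRF7 changed by -0.50 ± 0.13, adjusted p = 0.0037, short of 1.5-fold. IRF1, a target of interferon gamma, and IRF9, the DNA-binding partner of STAT2, were not called with MLN4924 in any siRNA, with changes of -0.16, 0.39, -0.11 and 0.12 for IRF1 and 0.15, -0.29, -0.35 and -0.42 for IRF9 in GL2, p53, CDT1 and BRCA1 siRNA cells. Markers of other cells were summed from signals that are not centred. The summed signal of the 9 measured leukocyte markers lay at 184.3 to 332.6 with MLN4924 in GL2 siRNA cells, against 272.2 to 307.7 and 416.8 to 425.8 in the first and second DMSO sets. The highest of these, 332.6, is the library labelled GL2 MLN4924 3, and the other 2 lay at 184.3 and 192.8, below both DMSO sets. In cells given p53 siRNA, the sum was 142.4 to 211.2 with MLN4924, against 284.0 to 396.7 with DMSO. It was 219.9 to 272.6 with MLN4924 in CDT1 siRNA cells, against 420.1 to 506.8 with DMSO, and 185.3 to 341.0 with MLN4924 in BRCA1 siRNA cells, against 769.5 to 960.3 with DMSO. The lowest MLN4924 sum there is the library labelled BRCA1 MLN4924 3, and the other 2 lay at 329.9 and 341.0. The 7 measured fibroblast markers summed to 357.4 to 571.8 with MLN4924 in GL2 siRNA cells, against 428.4 to 528.5 with DMSO, and to 357.4 and 362.6 without the library labelled GL2 MLN4924 3. Their sum was 375.2 to 419.2 with MLN4924 in p53 siRNA cells, against 478.6 to 657.6 with DMSO, 581.5 to 712.3 in CDT1 siRNA cells, against 823.7 to 861.6, and 406.7 to 515.1 in BRCA1 siRNA cells, against 899.2 to 1048.8. Without the library labelled BRCA1 MLN4924 3, that last MLN4924 sum was 493.5 and 515.1. No single fibroblast marker was called with MLN4924 in GL2 or CDT1 siRNA cells. COL1A1 rose (0.65) and PDGFRB fell (-1.89) in p53, and LUM fell (-1.61) in BRCA1 siRNA cells. LYZ was the 1 leukocyte marker that fell in all 4 siRNAs and the 1 above the median signal on every array. NCAM1 rose in p53 siRNA cells (0.65), and no other leukocyte marker was called with MLN4924. SOX10, the melanocyte lineage factor, fell by 2.47, 3.02, 2.39 and 2.01 on the log2 scale in GL2, p53, CDT1 and BRCA1 siRNA cells. The sum of the 10 measured melanocyte markers was 2710 to 3263 with MLN4924 in GL2 siRNA cells, against 4239 to 5259 with DMSO. Its lowest value was the library labelled GL2 MLN4924 3, the other 2 lying at 3213 and 3263. AXL and SOX10, with median log2 levels of 11.07 and 10.34 over all arrays, were the brightest in that list. The part of these shifts in the changes of the interferon-stimulated genes was not tested.

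The MLN4924 changes were compared between siRNAs by the test of their difference, which shares the GL2 arrays between comparisons. Between p53 and GL2 siRNA cells 0 members were called higher and 2 lower in their MLN4924 change, against 6.96% of all genes higher and 3.41% lower. The difference for IFIT1 was -2.26 ± 0.38, adjusted p = 0.000151, from the changes of -2.33 in p53 siRNA cells and -0.07 in GL2 siRNA cells. The difference for PARP9 was -0.83 ± 0.17, adjusted p = 0.000969. ISG20 and IFI35 fell in both, and the difference for IFI35 was -0.02. Without the doubted libraries IFIT2 (-0.66) and ISG15 (-0.79) were called as well, and at the deposited scaling 11 members were called lower. Between CDT1 and GL2 siRNA cells IFI44 was the 1 member called, higher at 0.69 ± 0.18, adjusted p = 0.0496, against 0.521% of all genes called higher and 0.698% lower. That call was lost on leaving out any of 14 of the 15 arrays it rests on (0.59 to 0.74). Between BRCA1 and GL2 siRNA cells 0 members were called by limma, against 0.632% of genes higher and 1.23% lower, with 7 members at an unadjusted p under 0.05 (18.4%, against 13.2% of all genes). This last comparison holds both libraries whose BRCA1 level goes against their label, and without the doubted libraries SAMD9 was called at 0.81. SAMD9 lay at 7.51, 7.88 and 6.57 with MLN4924 in BRCA1 siRNA cells and at 6.72, 6.53 and 7.59 in GL2 siRNA cells. OAS3 lay at 7.38, 7.39 and 8.16 with MLN4924 in BRCA1 siRNA cells and at 7.98, 7.92 and 7.07 in GL2 siRNA cells. For both genes the array labelled 3 stood apart from the other 2 in each group, in opposite directions in the 2 groups.

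Nutlin and daunorubicin were set against the first DMSO set. Under GL2 siRNA, daunorubicin raised 6 members and lowered 1, 15.8% and 2.63% of the 38, against 6.49% of all genes higher and 9.93% lower (medians 0.28 for members and -0.01 for all genes). At an unadjusted p under 0.05 limma gave 12 members higher and 4 lower, 42.1% in all, against 31.7% of all genes, and the groups lay apart for 21 members (55.3%), against 40.3% of all genes. IFI6, a small protein of the endoplasmic reticulum that restricts flaviviruses, lay at 8.14, 7.91 and 7.77 with daunorubicin, against 6.59, 6.97 and 7.29 with DMSO (0.99 ± 0.29, adjusted p = 0.0124), 1.98-fold higher without overlap. The call was lost without GL2 DMSO 1 of the first set (0.81) or GL2 daunorubicin 1 (0.89), and against the second set (0.74). PARP9 lay at 7.28, 7.45 and 7.44 with daunorubicin, against 6.53, 6.83 and 6.57 with DMSO (0.75 ± 0.14, adjusted p = 8.37e-05), a dimmer probe set of PARP9 changed by -0.39, and the mean of both was not called (0.19). IFI35 lay at 8.87, 8.84 and 8.58 with daunorubicin, against 7.98, 8.12 and 8.06 with DMSO (0.71 ± 0.18, adjusted p = 0.00307). HERC6, a relative of HERC5, lay at 6.81, 6.79 and 6.59 with daunorubicin, against 6.06, 5.60 and 6.04 with DMSO (0.83 ± 0.21, adjusted p = 0.00381). In each of these genes the 3 daunorubicin arrays lay above the 3 DMSO arrays. HERC5 (0.80 ± 0.29, adjusted p = 0.0436) and OAS2 (0.66 ± 0.20, adjusted p = 0.0137) were called too, but HERC5 lost its call without any 1 of the 6 arrays (0.68 to 0.87), and OAS2 without either of 2 arrays (0.55 and 0.60). The probe sets of OAS2 did not all change in the same direction. CMPK2 was the 1 member that fell, at 5.91, 5.75 and 6.22 with daunorubicin, against 6.93, 6.67 and 6.66 with DMSO (-0.79 ± 0.20, adjusted p = 0.00384). At the deposited scaling 11 members were called higher and 1 lower, the centring having lowered all daunorubicin changes by 0.17. The summed leukocyte markers were 630.5 to 799.3 with daunorubicin, against 272.2 to 307.7 with DMSO, and LYZ alone of them was called (1.50). The 5' to 3' signal ratio of actin was 0.727 to 0.769 with daunorubicin, against 0.806 to 0.886 with DMSO, without overlap. The part of either in these changes was not tested.

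Nutlin in GL2 siRNA cells raised 1 member and lowered 4, 2.63% and 10.5% of the 38, against 6.71% of all genes higher and 9.67% lower. The lower share is near that of all genes, and the groups lay apart for 13 members (34.2%), against 43.8% of all genes. CMPK2 lay at 5.58, 6.02 and 5.23 with Nutlin, against 6.93, 6.67 and 6.66 with DMSO (-1.14 ± 0.20, adjusted p = 6.21e-05), 2.21-fold lower. IRF7 lay at 5.55, 5.53 and 5.50 with Nutlin, against 6.22, 6.38 and 6.75 with DMSO (-0.92 ± 0.15, adjusted p = 2.35e-05). IFI44 lay at 7.75, 7.86 and 7.85 with Nutlin, against 8.52, 8.50 and 8.59 with DMSO (-0.72 ± 0.14, adjusted p = 0.000156). These 3 genes had no overlap between groups, but IRF7 was not called against the second DMSO set (-0.39), nor IFI44 from the mean of its probe sets (-0.44). USP18 lay at 5.84, 5.94 and 5.23 with Nutlin, against 6.60, 6.38 and 6.12 with DMSO (-0.70 ± 0.24, adjusted p = 0.029), and lost its call without any 1 of 3 arrays (-0.70 to -0.48). LGALS3BP was the 1 member higher, at 11.33, 11.38 and 11.48 with Nutlin, against 10.70, 10.81 and 10.86 with DMSO (0.61 ± 0.14, adjusted p = 0.00169). Its change was 0.30 against the second DMSO set, and it lost its call without GL2 DMSO 1 of the first set (0.56) or GL2 Nutlin 3 (0.57). The summed leukocyte markers were 480.0 to 503.7 with Nutlin, against 272.2 to 307.7 with DMSO. Among them LYZ was called higher (0.87) and PTPRC lower (-1.65). The actin 5' to 3' ratio was 0.697 to 0.732, against 0.806 to 0.886. The part of the sum and of the ratio was not tested.

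In p53 siRNA cells few members were called with the same drugs against the first DMSO set. Against the second set more were called with each drug, as counted below where the control sets are exchanged. With Nutlin limma called 0, against 0.0405% of all genes higher and 0.0152% lower, with 4 members at an unadjusted p under 0.05, all lower (10.5%, near the 9.77% of all genes), and groups lying apart for 11 members (28.9%), against 20.7% of all genes. With daunorubicin 1 was called higher and 1 lower, against 5.67% of all genes higher and 6.35% lower, with groups apart for 11 members (28.9%), against 25.9% of all genes. At an unadjusted p under 0.05 limma gave 13 members with daunorubicin, 5 higher and 8 lower (34.2%, against 28.5% of all genes). PARP14, an ADP-ribosyltransferase, lay at 7.32, 6.71 and 6.78 with daunorubicin, against 6.31, 6.17 and 6.52 with DMSO (0.60 ± 0.21, adjusted p = 0.046). IFI35 lay at 7.05, 8.21 and 8.33 with daunorubicin, against 8.58, 8.32 and 8.46 with DMSO (-0.59 ± 0.18, adjusted p = 0.0189), with overlap. The lowest IFI35 value is the library labelled p53 daunorubicin 1, whose 5' to 3' ratios were low, and without it neither gene was called (0.41 for PARP14 and -0.18 for IFI35). In p53 siRNA cells the leukocyte sum was 626.5 to 674.7 with daunorubicin and 310.0 to 390.9 with Nutlin, against 284.0 to 317.2 in the first DMSO set. LYZ alone of these markers was called, higher with daunorubicin (1.37).

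The difference between siRNAs was then tested directly. For daunorubicin 1 member had a higher change in p53 than in GL2 siRNA cells and 8 a lower one, or 21.1% lower, against 9.65% of all genes higher and 5.69% lower. IFI6 lay at 4.91, 6.37 and 7.35 with daunorubicin in p53 siRNA cells, against 6.97, 6.85 and 6.97 with DMSO, and its difference from GL2 siRNA cells was -1.71 ± 0.42, adjusted p = 0.00364. The differences were -1.30 ± 0.25, adjusted p = 0.000356 for IFI35 and -1.003 ± 0.19, adjusted p = 0.000318 for PARP9, which lay at 7.16, 6.90 and 6.73 with daunorubicin in p53 siRNA cells, against 7.24, 7.06 and 7.26 with DMSO. From the mean of its probe sets the PARP9 difference was not called (-0.39). ISG15 lay at 7.66, 7.38 and 7.28 with daunorubicin, against 6.79, 6.94 and 7.07 with DMSO in GL2 siRNA cells. In p53 siRNA cells ISG15 lay at 6.60, 6.95 and 7.11 with daunorubicin, against 7.43, 7.07 and 7.35 with DMSO, a difference of -0.91 ± 0.24, adjusted p = 0.00865. ISG15 thus lay above its DMSO arrays in GL2 siRNA cells, while in p53 siRNA cells its arrays with daunorubicin overlapped those with DMSO. The other calls were IFITM2 (-0.92 ± 0.17, adjusted p = 0.000188), IFITM3 (-0.80 ± 0.15, adjusted p = 0.000229), LGALS3BP (-0.79 ± 0.20, adjusted p = 0.00573) and IRF9 (-0.69 ± 0.19, adjusted p = 0.0115), and USP18 was higher in p53 siRNA cells (1.24 ± 0.33, adjusted p = 0.00903). Without the doubted libraries 10 members were called: LGALS3BP (-0.48) was lost, IRF1 (0.60) and OAS3 (0.62) were added, and IFI6 (-1.06), IFI35 (-0.90), PARP9 (-1.12) and ISG15 (-0.76) were still called.

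For Nutlin 1 member had a higher change in p53 than in GL2 siRNA cells and 2 a lower one, against 5.3% of all genes higher and 4.72% lower. IFITM2 lay at 9.77, 9.78 and 9.81 with Nutlin in p53 siRNA cells, against 10.19, 10.09 and 10.18 with DMSO. In cells given GL2 siRNA, it lay at 10.61, 10.38 and 10.54 with Nutlin, against 10.03, 10.05 and 10.16 with DMSO. IFITM2 was therefore below its DMSO arrays in p53 siRNA cells and above them in GL2 siRNA cells, with a difference of -0.80 ± 0.17, adjusted p = 0.00127. IFITM3 had a difference of -0.65 ± 0.15, adjusted p = 0.00279, lost without single arrays (-0.57). The probe sets of IFITM2 and IFITM3 are of a type that can read near-identical family members, so which of these genes moved is uncertain. CMPK2 differed by 1.09 ± 0.29, adjusted p = 0.0104, lying at 6.33, 6.81 and 6.81 with Nutlin in p53 siRNA cells, against 6.82, 6.62 and 6.67 with DMSO, and lost its call without GL2 Nutlin 3 (0.90). Without the doubted libraries, none of which is in this comparison but which enter the shared estimate of spread, ISG15 (-0.63), IFI6 (-0.84) and IFI35 (-0.60) were called as well.

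**Figure D3:**
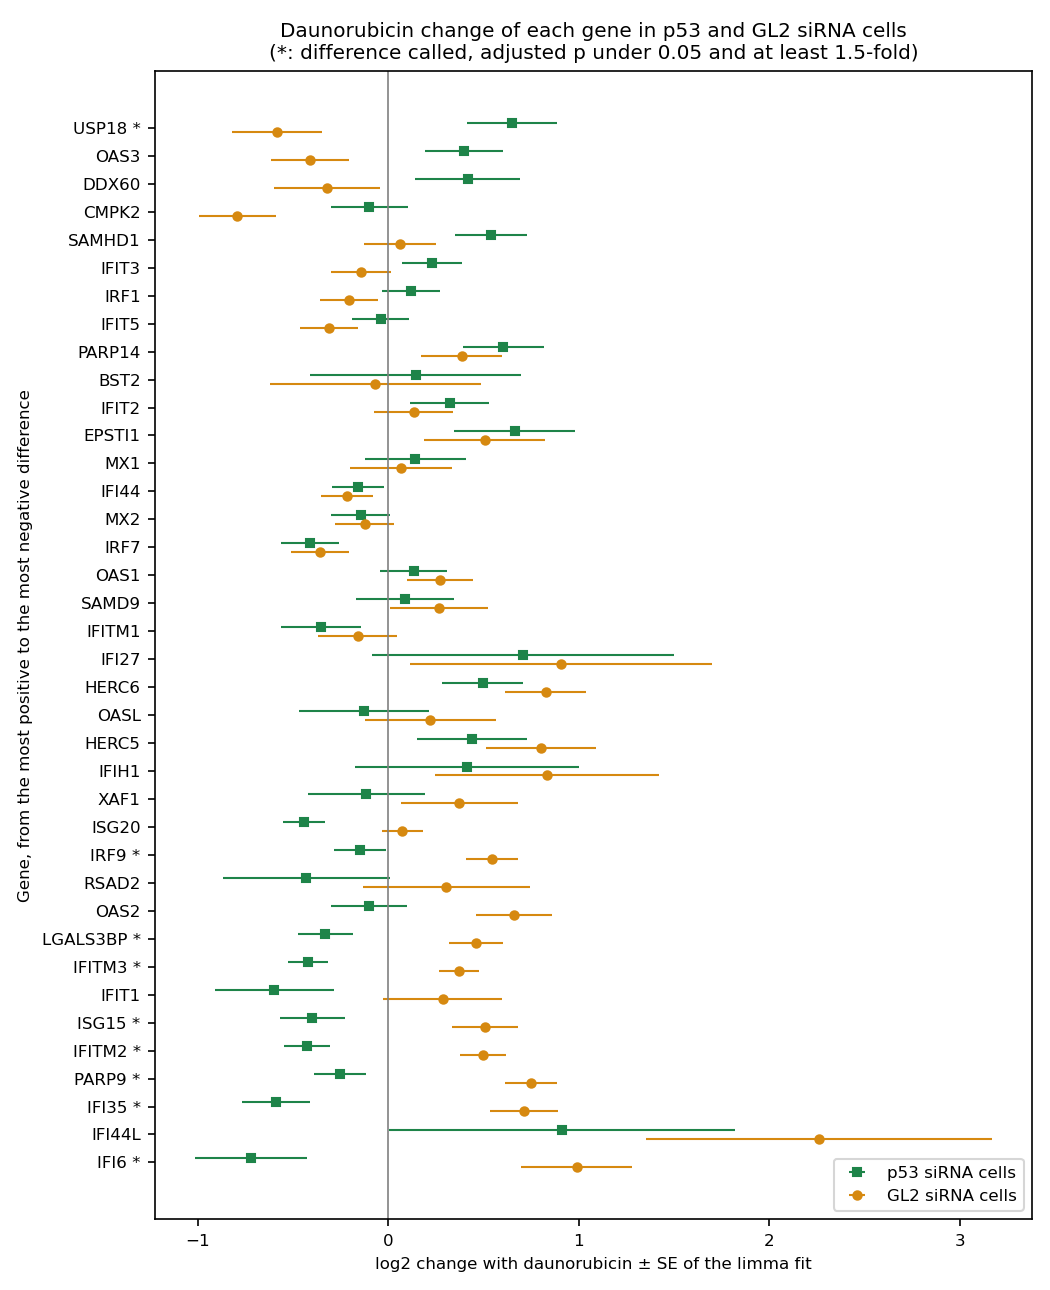
Log2 change with daunorubicin ± standard error for the interferon-stimulated genes in p53 siRNA cells (squares) and in GL2 siRNA cells (circles), against the first DMSO set of each (n = 3 arrays a group), with an asterisk where the difference was called. IFI6, IFI35, PARP9, ISG15, IFITM2, IFITM3, LGALS3BP and IRF9 have their square left of their circle and USP18 has it right.

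The drugs were compared with each other in GL2 siRNA cells. The change with MLN4924 was lower than that with daunorubicin for 14 members and higher for 0, or 36.8% lower, against 9.03% of all genes lower and 18.2% higher (medians -0.49 for members and 0.10 for all genes). The largest of these were in IFI44L (-3.71 ± 1.02, adjusted p = 0.00452), IFI27 (-2.81 ± 0.89, adjusted p = 0.0134), IFI35 (-1.95 ± 0.20, adjusted p = 4.4e-09), ISG20 (-1.86 ± 0.12, adjusted p = 6.46e-13), BST2 (-1.86 ± 0.62, adjusted p = 0.0194), PARP9 (-1.24 ± 0.15, adjusted p = 1.34e-07), OAS1 (-1.15 ± 0.20, adjusted p = 2.27e-05) and ISG15 (-1.01 ± 0.19, adjusted p = 9.16e-05). The MLN4924 change is against both DMSO sets and the daunorubicin change against the first, and with 1 common control the differences were -1.59 for IFI27, which was then not called, and -3.56 for IFI44L, -1.93 for IFI35, -1.90 for ISG20, -1.96 for BST2, -1.25 for PARP9, -1.24 for OAS1 and -0.84 for ISG15, all still called. From the mean of its probe sets PARP9 was not called (-0.46). The calls of IFI27 and BST2, both dim, were lost without single arrays (-1.82 for IFI27 without GL2 daunorubicin 2, and -1.78 to -1.69 for BST2), and 9 members were called without GL2 daunorubicin 1. Against Nutlin the MLN4924 change was lower for 10 members and higher for 1, against 8.69% of all genes lower and 17.0% higher. ISG20 (-1.77 ± 0.12, adjusted p = 1.17e-12), IFI35 (-1.76 ± 0.20, adjusted p = 3.24e-08) and PARP9 (-0.91 ± 0.15, adjusted p = 1.73e-05) were among the lower, and HERC5 was the higher one (0.89 ± 0.32, adjusted p = 0.0349), a call lost without any 1 of 6 arrays (0.61 to 0.88) and with a common control (0.57). With that control 7 members were lower and 1, USP18 (0.63), higher. From the mean of its probe sets PARP9 was not called (-0.39). Between daunorubicin and Nutlin, which share the first DMSO set, 0 members were called by limma, against 1.22% of all genes higher and 1.08% lower, with 5 members at an unadjusted p under 0.05, all higher with daunorubicin (13.2%, near the 13.6% of all genes). Without the doubted libraries HERC6 (0.64) and IFI6 (0.62) were called higher. None of those libraries is in this comparison, but they enter the shared estimate of spread.

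Under DMSO alone few members were called between an siRNA and GL2. At an unadjusted p under 0.05, limma gave 11, 16 and 10 members with p53, CDT1 and BRCA1 siRNA. That is 28.9%, 42.1% and 26.3%, against 21.7%, 23.9% and 25.9% of all genes. Of these members, 10, 7 and 5 were higher and 1, 9 and 5 lower, in the same order. The share with BRCA1 siRNA is near that of all genes. The arrays of p53, CDT1 and BRCA1 siRNA cells lay apart from those of GL2 siRNA cells for 4 members (10.5%), 13 members (34.2%) and 9 members (23.7%), against 8.15%, 22.3% and 21.4% of all genes. With p53 siRNA 4 members were higher (10.5%) and 0 lower, against 1.71% of all genes higher and 2.27% lower. These were HERC5 (0.85 ± 0.21, adjusted p = 0.00548), PARP9 (0.66 ± 0.10, adjusted p = 1.14e-05), IFI35 (0.63 ± 0.13, adjusted p = 0.000839) and IFITM1 (0.61 ± 0.15, adjusted p = 0.00549). HERC5 lay at 6.03 to 6.51 (median 6.29) in p53 siRNA cells, against 4.08 to 5.88 (median 5.65) in GL2 siRNA cells. Against the first DMSO set alone the 4 changes were 0.34, 0.54, 0.40 and 0.31, and none was called. With CDT1 siRNA 2 were higher (5.26%) and 1 lower (2.63%), against 2.72% of all genes higher and 3.58% lower. IFI44 lay at 7.29, 7.52 and 7.48 in CDT1 siRNA cells, against 8.42 to 8.59 (median 8.51) in GL2 siRNA cells (-1.07 ± 0.12, adjusted p = 1.6e-07), 2.10-fold lower without overlap. IFI35 (0.69 ± 0.15, adjusted p = 0.0025) and ISG15 (0.68 ± 0.15, adjusted p = 0.0021) were higher, ISG15 lying at 7.80, 7.81 and 7.76 in CDT1 siRNA cells, against 6.79 to 7.37 (median 7.11) in GL2 siRNA cells. With BRCA1 siRNA IFI35 was higher (0.68 ± 0.15, adjusted p = 0.00257) and OAS3 lower (-0.61 ± 0.18, adjusted p = 0.0183), against 4.11% of all genes higher and 4.37% lower. OAS3 lay at 7.74, 7.37 and 7.36 in BRCA1 siRNA cells, against 7.84 to 8.40 (median 8.02) in GL2 siRNA cells, and lost its call without single arrays (-0.57 to -0.54). IFI35 was called higher with each of the 3 siRNAs, which share the GL2 arrays as control. The leukocyte sum under DMSO was 769.5 to 960.3 with BRCA1, 420.1 to 506.8 with CDT1 and 284.0 to 396.7 with p53 siRNA, against 272.2 to 425.8 with GL2 siRNA. LYZ alone of these markers was called, higher with BRCA1 siRNA (1.69). The fibroblast sum was 899.2 to 1048.8 with BRCA1, 823.7 to 861.6 with CDT1 and 478.6 to 657.6 with p53 siRNA, against 428.4 to 528.5. LUM alone of the fibroblast markers was called, higher with BRCA1 (2.05) and CDT1 siRNA (1.72). The part of these sums in the siRNA changes was not tested. The second DMSO set differed from the first in 0 members by limma in GL2 siRNA cells, against 0.364% of all genes higher and 0.576% lower, and in 0 in p53 siRNA cells, against 0.0809% and 0.197%. At an unadjusted p under 0.05, 5 members differed in each (13.2%), near the 12.5% of all genes in GL2 and against 8.9% in p53 siRNA cells.

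Over the 4 MLN4924 comparisons, 4 Nutlin and daunorubicin comparisons and 3 siRNA comparisons, 25 of the 38 members were called at least once (65.8%) and 13 never, against 51.3% of all genes called at least once. 7 members had a mean signal under the median of all signals: IFIH1, RSAD2, BST2, IFI44L, IFI27, XAF1 and EPSTI1. Group means of ISG20 spanned 7.50 to 9.61, those of IFI35 6.83 to 8.95 and those of IFI44 6.41 to 8.54. 19 members had several probe sets, and for all 3 such members called with MLN4924 in GL2 siRNA cells, and all 8 in p53 siRNA cells, every probe set changed in the same direction, though not by the same size (IFIT3 in p53 siRNA cells -0.99 and -0.13). With daunorubicin in GL2 siRNA cells this held for 1 of 3, and not for OAS2 and PARP9.

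The upstream pathway was read from lists of ligands, receptors and kinases with STAT3, sensors, and feedback regulators. Of the 11 measured interferon ligands, IFNB1, the first type I interferon that most cells make, lay between -0.19 and 3.20 over the 42 arrays and was above the median signal on 0 of them. The same held for IFNA1, IFNA2, IFNA5, IFNA8, IFNW1, IFNK and IFNG, while IFNE was above it on 31 arrays, IFNL1 on 3 and IFNL2 on 6. With MLN4924 1, 0, 0 and 1 ligands were called in GL2, p53, CDT1 and BRCA1 siRNA cells, all of them lower. Of the 10 measured genes in the list of receptors, kinases and the transcription factor STAT3, 3 rose and 1 fell with MLN4924 in GL2 siRNA cells, 0 and 2 did so in p53, 1 and 2 in CDT1 and 0 and 1 in BRCA1 siRNA cells. For lists this short, 1 gene is 10.0%, against the 4.63% to 17.8% of all genes called per direction in these comparisons. STAT3 was 1 of the 3 that rose in GL2 (0.89 ± 0.12, adjusted p = 7.95e-07) and 1 of the 2 that fell in p53 siRNA cells (-0.81 ± 0.12, adjusted p = 2.41e-06). IFNAR1, the type I receptor chain, lay at 7.38, 7.26 and 7.40 with MLN4924 in GL2 siRNA cells, against 6.21, 6.50 and 6.16 in the first and 6.63, 6.52 and 6.93 in the second DMSO set (0.86 ± 0.17, adjusted p = 0.000278). With CDT1 siRNA under DMSO it lay at 5.03, 4.41 and 5.62, against the same GL2 arrays (-1.47 ± 0.17, adjusted p = 5.42e-07), and it was the lowest group. IFNLR1, a receptor of lambda interferons, fell with MLN4924 in all 4 siRNAs (-0.88, -0.60, -1.12 and -0.89 in GL2, p53, CDT1 and BRCA1 siRNA cells). JAK1 lay between 8.73 and 9.86, above the median signal on all 42 arrays, and was not called with MLN4924 in any siRNA.

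Of the 16 measured sensor and adaptor genes, 1 rose and 1 fell with MLN4924 in GL2 siRNA cells, 1 and 3 did so in p53, 0 and 2 in CDT1 and 1 and 1 in BRCA1 siRNA cells. In GL2 siRNA cells that is 6.25% each way, below the 10.2% of all genes higher and near the 7.06% lower. The shares of all genes higher and lower were 17.8% and 7.6% in p53, 5.93% and 4.63% in CDT1 and 9.79% and 7.15% in BRCA1 siRNA cells. STING1, the adaptor that carries the signal of the DNA sensor cGAS, lay at 6.93, 7.13 and 6.69 with MLN4924 in GL2 siRNA cells, against 7.99, 8.11 and 8.21 and 8.09, 8.11 and 8.20 in the DMSO sets (-1.20 ± 0.11, adjusted p = 2.54e-10). Under p53 siRNA, STING1 lay at 6.52, 6.50 and 6.57 with MLN4924, against 7.77, 7.63 and 7.93 and 7.69, 7.86 and 7.71 in the DMSO sets (-1.24 ± 0.11, adjusted p = 9.6e-11). In cells given CDT1 siRNA, it lay at 6.57, 6.54 and 6.70 with MLN4924, against 7.53, 7.50 and 7.82 with DMSO (-1.01 ± 0.12, adjusted p = 3.11e-07). All MLN4924 arrays lay below the DMSO arrays in these 3 siRNAs. With BRCA1 siRNA under DMSO STING1 lay at 7.43, 6.98 and 7.17, lower than in GL2 siRNA cells (-0.92 ± 0.11, adjusted p = 3.67e-07), and with MLN4924 at 6.65, 6.60 and 7.02, where it was not called. CGAS, the sensor itself, lay between 3.12 and 6.21 and was above the median signal on 28 arrays. AIM2, another sensor of cytosolic DNA, fell with MLN4924 in p53 (-0.99), CDT1 (-0.96) and BRCA1 siRNA cells (-1.94). Of the 10 feedback regulators, 0 were called with MLN4924 in GL2 siRNA cells. In p53 siRNA cells 2 rose and in BRCA1 siRNA cells 1, near the 17.8% and 9.79% of all genes called higher there. SOCS3, an inhibitor of JAK kinases, fell with Nutlin (-2.04 ± 0.24, adjusted p = 9.73e-08) and daunorubicin (-1.06 ± 0.24, adjusted p = 0.00133) in GL2 siRNA cells.

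**Figure D4:**
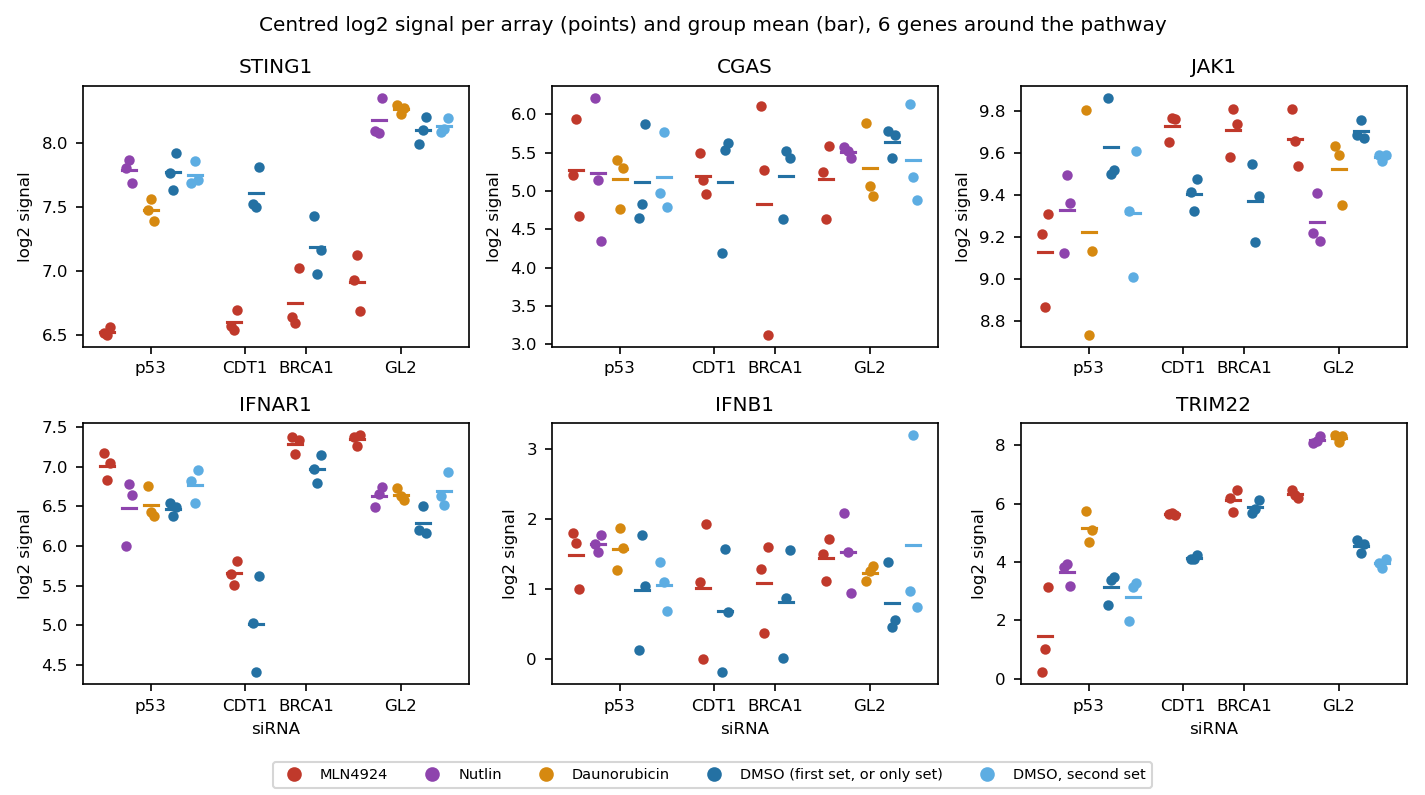
Log2 signal of STING1, CGAS, JAK1, IFNAR1, IFNB1 and TRIM22 on every array, by siRNA and treatment, with points for arrays and a bar for each group mean (n = 3 arrays a group). STING1 is lower with MLN4924 in GL2, p53 and CDT1 siRNA cells, IFNB1 stays at or under 3.20 on every array, and TRIM22 is higher with Nutlin and daunorubicin in GL2 siRNA cells.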

How the data were processed

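RNA was measured on 42 Affymetrix arrays. The deposited table holds a linear signal intensity for 54675 probe sets, which came from Affymetrix Expression Console (version not stated) per the submitters' processing notes; each array had the same mean, 150.02, after trimming 2% at each end, so depth has no counterpart here and the number of arrays limits the precision. Of the probe sets, 41097 had 1 gene symbol in the platform annotation, 1801 several and 11777 none, and each gene was read from its single-symbol probe set with the highest mean. The deposited intensities reached 11983.8, and 147 zeros were raised to 0.1 before log2. Each array was then centred on its median gene. Background correction, detection calls and scan batches were not analysed here.

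The tests were run in limma 3.58.1 (R 4.3.3; lmFit, contrasts.fit, eBayes): 1 fit of 14 groups, 28 residual degrees of freedom and 21 contrasts, with Benjamini-Hochberg adjustment over 19775 genes. The fit was tested on simulated data. The labels do not say which DMSO set belongs to which treatment. MLN4924 in GL2 and p53 siRNA cells, and each siRNA under DMSO, were compared with both sets, Nutlin and daunorubicin with the first, and MLN4924 in CDT1 or BRCA1 siRNA cells with the DMSO arrays of that siRNA. The members, lists, control sets and tests were chosen with earlier results of these data known. By the rule for names, the text names up to 8 called members with the largest change in a comparison, members of a role group where that group is described, and up to 4 called genes of each other list. It also names CDT1, BRCA1 and CDKN1A as label checks, and IFNB1, JAK1, IFNAR1, CGAS and STING1 for their levels. Other lists held ligands, receptors, sensors, feedback regulators, further interferon-stimulated and antigen presentation genes, and markers of melanocytes, leukocytes, fibroblasts and epithelial cells. Alternatives were the replicate block, scaling, probe sets, pseudocount, dim genes, doubted libraries, groups in the fit, DMSO sets, minimum fold and leaving out each array. Tables and figures used Python 3.11.15, numpy 2.4.6, pandas 2.3.3, scipy 1.17.1 and matplotlib 3.10.9, and promoters came from RefSeq.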

Additional observations from a re-analysis of the deposited data

Results flagged for a closer look

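Differences between siRNAs in the same treatment change, tested in the limma fit, set 15 results apart. With MLN4924 the change in p53 siRNA cells was lower than in GL2 siRNA cells by -2.26 for IFIT1 and -0.825 for PARP9, and the change of IFI44 in CDT1 siRNA cells was higher than in GL2 siRNA cells by 0.69. With Nutlin the p53 change differed from the GL2 change by 1.09 for CMPK2, -0.80 for IFITM2 and -0.65 for IFITM3. With daunorubicin the p53 change differed from the GL2 change by 1.24 for USP18, -1.71 for IFI6, -1.30 for IFI35, -1.003 for PARP9, -0.92 for IFITM2, -0.91 for ISG15, -0.80 for IFITM3, -0.79 for LGALS3BP and -0.69 for IRF9.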

How the results depend on the processing

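No called change of a member reversed under any alternative. Of 101 called changes over the 21 comparisons, 97 were still called at the deposited scaling, 97 with quantile normalization, 78 with a pseudocount of 16, 82 with the mean of a gene's probe sets, 83 in a fit of only the groups compared, 95 without the 3 doubted libraries and 871 of 975 with 1 array left out. All 91 of those whose gene stayed in were still called without dim genes. Dim genes limit what these arrays can show, and the cause of each shift below was not tested.

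Numbers of called members that moved by over 1.5 times were as follows. At the deposited scaling they were 16 for MLN4924 in GL2 siRNA cells (10 as reported), 12 for daunorubicin in GL2 siRNA cells (7), 11 for the MLN4924 difference of p53 from GL2 siRNA (2), 2 for that of CDT1 (1), 23 for MLN4924 less daunorubicin (14), 2 for daunorubicin less Nutlin (0) and 1 between the DMSO sets of GL2 (0). With the pseudocount they were 6 for MLN4924 in GL2 siRNA cells, 0 for daunorubicin in p53 siRNA cells (2) and 1 for BRCA1 siRNA (2). With no minimum fold they were 10 for Nutlin in GL2 siRNA cells (5), 12 for daunorubicin in GL2 and 6 in p53 siRNA cells, 8 for CDT1 siRNA (3), 6 for BRCA1 siRNA, 4 for the MLN4924 difference of p53 and 2 for daunorubicin less Nutlin. With quantile normalization they were 11 and 1 for daunorubicin in GL2 and p53 siRNA cells, 4 for the MLN4924 difference of p53 and 2 for daunorubicin less Nutlin. Without dim genes they were 4 for daunorubicin in p53 siRNA cells, and 5 and 2 for the MLN4924 differences of p53 and CDT1. Without the doubted libraries they were 0 for daunorubicin in p53 siRNA cells, 4 and 1 for the MLN4924 differences of p53 and BRCA1 (0), 6 for the Nutlin difference (3) and 2 for daunorubicin less Nutlin. In fits of only the groups compared they were 0 for daunorubicin in p53 siRNA cells, 2 for p53 siRNA (4), 5 for the Nutlin difference and 3 for the daunorubicin difference (9). With the mean of probe sets the MLN4924 difference of CDT1 had 0.

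Against the first DMSO set they were 0 for p53 siRNA, 1 for BRCA1 siRNA and 0 for the MLN4924 difference of CDT1. Against the second set they were 3 for Nutlin (0) and 8 for daunorubicin in p53 siRNA cells, 11 for daunorubicin in GL2 siRNA cells, 5 each for CDT1 and BRCA1 siRNA, 5 and 2 for the MLN4924 differences of p53 and BRCA1, and 8 for the Nutlin difference. Against both sets they were 4 for daunorubicin in p53 siRNA cells and 8 for the Nutlin difference.

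Same-numbered arrays did not deviate together (273 pairs, median r of -0.004, from -0.206 to 0.122, against 0.001 for other pairs), so the numbers do not pair the samples. With the replicate block 98 of the 101 changes were still called and 2 were added, daunorubicin in p53 siRNA cells had 1 called member and the MLN4924 difference of CDT1 had 0.

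With each array left out in turn the number called was 9 to 11 for MLN4924 in GL2, 12 to 16 in p53, 4 to 7 in CDT1 and 8 to 9 in BRCA1 siRNA cells. It was 3 to 6 for Nutlin and 5 to 7 for daunorubicin in GL2 siRNA cells, 0 for Nutlin and 0 to 4 for daunorubicin in p53 siRNA cells, and 3 to 5, 3 to 6 and 1 to 3 for p53, CDT1 and BRCA1 siRNA. For differences it was 2 to 4, 0 to 1 and 0 for MLN4924 in p53, CDT1 and BRCA1 siRNA, 2 to 4 for Nutlin and 9 to 11 for daunorubicin. Between drugs it was 9 to 11 for MLN4924 less Nutlin, 9 to 16 for MLN4924 less daunorubicin and 0 to 1 for daunorubicin less Nutlin, and between DMSO sets 0 to 1 in GL2 and 0 in p53 siRNA cells. The arrays behind shifts over 1.5 times were CDT1 MLN4924 2 (7 called without it), GL2 DMSO 1 of the first set for Nutlin (3), p53 daunorubicin 1 (0) and 3 (4), each p53 DMSO array of the first set for daunorubicin (1), GL2 DMSO 3 of either set for CDT1 siRNA (6), p53 MLN4924 1 (4) and GL2 daunorubicin 1 (9).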

Other observations

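Of 34 measured interferon-stimulated genes outside the 39, 4 rose and 4 fell with MLN4924 in GL2, 4 and 7 in p53, 4 and 4 in CDT1 and 4 and 3 in BRCA1 siRNA cells, and 8 rose and 4 fell with daunorubicin and 7 and 4 with Nutlin in GL2 siRNA cells. In GL2 siRNA cells with MLN4924 that is 11.8% each way, near the 10.2% of all genes higher and above the 7.06% lower, and in BRCA1 siRNA cells 11.8% and 8.82%, near the 9.79% and 7.15% of all genes. The shares were 11.8% higher and 20.6% lower in p53 siRNA cells, against 17.8% and 7.6% of all genes, and 11.8% each way in CDT1 siRNA cells, against 5.93% and 4.63%. With daunorubicin 23.5% rose and 11.8% fell, against 6.49% and 9.93% of all genes, and with Nutlin 20.6% and 11.8%, against 6.71% and 9.67%. TRIM22, an antiviral ubiquitin ligase that is also known as a p53 target, lay at 8.07, 8.15 and 8.30 with Nutlin and 8.34, 8.10 and 8.33 with daunorubicin in GL2 siRNA cells, against 4.76, 4.29 and 4.62 with DMSO (3.62 ± 0.42, adjusted p = 5.46e-08 and 3.70 ± 0.42, adjusted p = 3.91e-08). SLFN5, a member of the Schlafen family, fell with MLN4924 in all 4 siRNAs (-1.55, -2.29, -1.24 and -2.26 in GL2, p53, CDT1 and BRCA1 siRNA cells) and rose with Nutlin (1.48) and daunorubicin (1.77) in GL2 siRNA cells. SLFN11, its relative that stalls damaged replication forks, fell with daunorubicin (-3.74 ± 0.30, adjusted p = 2.66e-11) and Nutlin (-2.86 ± 0.30, adjusted p = 6.95e-09) in GL2 siRNA cells. Its difference of p53 from GL2 siRNA was 4.43 ± 0.42, adjusted p = 4.34e-09 for daunorubicin. SP100, a nuclear body protein, rose with MLN4924 in all 4 siRNAs (1.44, 0.95, 1.04 and 1.26).

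Of 18 measured antigen presentation genes, 3 rose and 4 fell with MLN4924 in GL2, 1 and 4 in p53, 1 and 3 in CDT1 and 1 and 6 in BRCA1 siRNA cells, while with Nutlin and daunorubicin in GL2 siRNA cells 6 and 5 rose and 0 fell. The shares higher and lower with MLN4924 were 16.7% and 22.2% in GL2 siRNA cells, against 10.2% and 7.06% of all genes, 5.56% and 22.2% in p53, against 17.8% and 7.6%, 5.56% and 16.7% in CDT1, against 5.93% and 4.63%, and 5.56% and 33.3% in BRCA1, against 9.79% and 7.15%. With Nutlin 33.3% rose and with daunorubicin 27.8%, against 6.71% and 6.49% of all genes. CIITA, the activator of MHC class II genes, fell with MLN4924 in GL2 (-2.46 ± 0.29, adjusted p = 9.65e-08), p53 (-2.30 ± 0.29, adjusted p = 1.9e-07), CDT1 (-1.92 ± 0.34, adjusted p = 0.000123) and BRCA1 siRNA cells (-3.31 ± 0.34, adjusted p = 7.5e-09). TAP1, the peptide transporter of class I presentation, rose with Nutlin (1.60 ± 0.11, adjusted p = 1.22e-12) and daunorubicin (1.09 ± 0.11, adjusted p = 6.1e-09) and with MLN4924 (0.80 ± 0.10, adjusted p = 1.17e-07) in GL2 siRNA cells. Its Nutlin change was lower in p53 than in GL2 siRNA cells (-1.42 ± 0.16, adjusted p = 8.38e-08), as was that of 7 other genes of this list.

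The epithelial markers (6 measured) summed to 3659 to 3862 with MLN4924 in GL2 siRNA cells, against 2930 to 3415 and 2652 to 2791 in the DMSO sets. KRT18, with a median log2 level of 11.17 over all arrays, was the brightest of them. The markers split in direction: KRT18 (0.61) and KRT5 (1.36) were called higher and KRT14 lower (-0.90). EPCAM, KRT8 and CDH1 were not called.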
